A study of Homo sapiens with 6 samples.

Results

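The genes of the cytosolic ribosomal proteins and of their L-type paralogues were followed in SW480, a cell line that was derived from a human colon adenocarcinoma. Members were the rows of the deposited table whose symbol was RPL, RPS or RPLP followed by a digit, without the RPS6K kinases, the RPS4Y genes and RPS19BP1. This gave 88 of 20289 genes: 43 canonical proteins of the large subunit, 30 of the small subunit, 3 of the P stalk (RPLP0, RPLP1 and RPLP2), 8 paralogues, 3 read-through genes and 1 pseudogene, RPS27AP5. RNA was sequenced from 3 control libraries, LV-NC, whose genotype is labelled WT, and 3 libraries labelled as overexpressing MUCP1 with a Flag tag, MUCP1-FLAG; both were kept in L-15 with fetal bovine serum. The labels call the libraries biological replicates, without a day, passage, clone or batch, so p-values measure the spread between these libraries. The table has no row with the symbol MUCP1, and the overexpression was not checked here. The series asks which genes change with raised MUCP1.

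A ribosome joins a small subunit, which reads the mRNA, to a large subunit, which forms the peptide bond, and each holds rRNA and a set of ribosomal proteins that are usually needed in equal numbers. The mRNAs of these proteins typically start with a C followed by a run of pyrimidines, the TOP sequence, through which mTORC1 and LARP1 control their translation. Paralogues such as RPL22L1 and RPS27L encode close relatives of a canonical protein; RPL22L1 is known to be controlled by RPL22, and RPS27L is a known target of p53. Mutations of several members, RPS19 among them, cause Diamond-Blackfan anaemia.

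The start site shows what most members share and the rule did not use. RefSeq promoters (build GRCh38.p14) matched 61 of the 76 canonical members and 6 of the 8 paralogues. Only the first listed start of each gene symbol was used, here and over all promoters, so any other start was not examined. The base at the annotated start was C, followed by 4 pyrimidines, in 41 of the 61 canonical members (67.21%), in 1 of the 6 paralogues, RPL22L1, and in 4.043% of all 27305 promoters. The motif CTTTC lay within 20 bases on either side of the start in 29 of the 61 canonical members (47.54%) on the strand of the gene. The share was the same 47.54% when CTTTC on the other strand, which reads GAAAG on the strand of the gene, was counted too. Over all promoters the shares were 5.354% and 9.467%. The motif can overlap the pyrimidine start. Windows are shown for the called members, since these carry the comparison, and for 2 further pairs in which paralogue and canonical gene start differently. Each runs from 10 bases before the start to 20 bases into the transcript, 5′ to 3′, with the first 5 transcribed bases in capitals.
RPL22L1 (chr3:170870176-170870205, minus strand): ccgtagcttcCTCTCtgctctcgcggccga
RPL22 (chr1:6199576-6199605, minus strand): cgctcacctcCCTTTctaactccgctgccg
RPS19 (chr19:41860245-41860274, plus strand): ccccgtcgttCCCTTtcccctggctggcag
RPS12 (chr6:132814559-132814588, plus strand): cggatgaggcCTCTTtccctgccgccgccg
RPS27L (chr15:63157458-63157487, minus strand): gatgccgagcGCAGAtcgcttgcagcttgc
RPS27 (chr1:153990752-153990781, plus strand): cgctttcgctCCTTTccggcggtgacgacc
RPL26L1 (chr5:172958719-172958748, plus strand): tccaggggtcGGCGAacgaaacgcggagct
RPL26 (chr17:8383174-8383203, minus strand): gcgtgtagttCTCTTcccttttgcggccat
RPL22L1 and RPL22 both began with C and pyrimidines. RPS27L and RPL26L1 began with G, unlike RPS27 and RPL26. A match or its absence describes these letters only.

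Levels of the canonical members are given as deposited FPKM, values corrected for the length of a gene and the depth of its library. They lay in nearly the same order in both groups, and most were within 4-fold of their median. The median over the 76 genes was 677 FPKM, averaged over the 6 libraries, and 71 lay within 4-fold of it. RPL26, a large-subunit protein near the peptide exit, was highest at 2264 FPKM, ahead of RPL10, which helps to form the catalytic centre, at 1971 and RPS2, a small-subunit protein, at 1939. RPL23A was lowest at 15.4 FPKM, below RPS10 at 53.6, RPS28 at 58.4 and RPS29 at 61.1. GENCODE 29 holds 1059 pseudogenes named after canonical members, a median of 9.5 per gene. There were 91 for RPL23A, 32 for RPS29, 11 for RPS10 and 3 for RPS28. RPL21 had 66 and stood at 1374 FPKM. The part of such copies in the levels was not tested. The sources used here do not say how the counting treated reads with several matches, so levels of members with many copies are uncertain. Across the 76 genes Spearman's rho of the mean FPKM between the groups was 0.996; genes are not independent replicates.

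**Figure D1:**
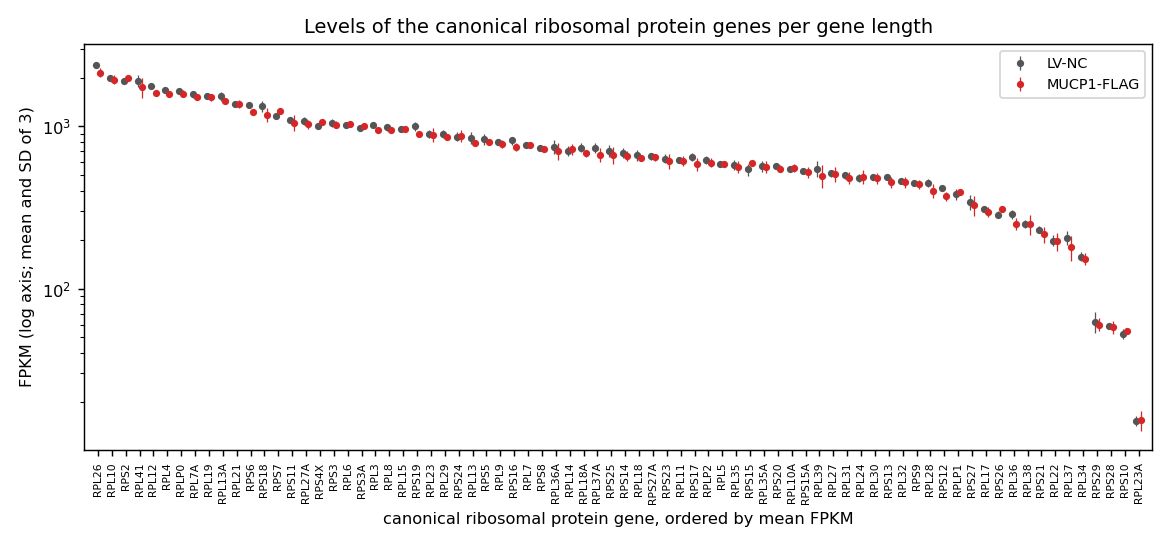
FPKM of the 76 canonical genes on a log axis, ordered by their mean, as mean and SD of 3 libraries for LV-NC (grey) and MUCP1-FLAG (red). The groups lie side by side for each gene, from RPL26 at 2264 to RPL23A at 15.4 FPKM averaged over all 6 libraries.

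Counts were compared with edgeR's quasi-likelihood test over all 12920 genes that passed a filter on low counts. All 76 canonical members, 5 paralogues and the 3 read-through genes were among them. The 4 members below the filter were RPL3L, with 8 counts over the 6 libraries, RPL39L and RPS27AP5, with 2 each, and RPL10L, with 0. RPL3L is the muscle form of RPL3, and RPL10L and RPL39L are best known from testis.

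Few ribosomal protein mRNAs passed the test, and their differences were small. Of the 84 tested members 3 were called at an edgeR adjusted p under 0.05, all lower in MUCP1-FLAG: the paralogue RPL22L1 and the small-subunit genes RPS19 and RPS12. This is 3.57% of the tested members, beside 16.1% of all tested genes (8.35% higher and 7.71% lower). The order of these shares rests on MUCP1-FLAG replicate 2: without it 12 members were called, or 14.3%, beside 10.7% of all genes. With 0 members called higher, 4 had an unadjusted edgeR p under 0.05 and a higher level, and DESeq2 called 0 higher and 4 lower, where it called 13.5% of all genes. In both directions 15 members had an unadjusted p under 0.05, 17.9% of those tested beside 29.4% of all genes. The median log2 fold change was −0.03 over the members and −0.00 over all genes; that of the members ran from −0.08 without MUCP1-FLAG replicate 2 to 0.01 without LV-NC replicate 2. Among the canonical members the log2 fold changes ran from −0.18 (RPL36) to 0.15 (RPS15), which is at most 1.13-fold in either direction, and 58 of 76 lay within 0.1 of 0. Non-member genes with a mean of at least 100 CPM (counts scaled to a common library size with TMM factors) had as small a standard error, with a median of 0.050 beside 0.052 for the 70 canonical members at that level. Of these 2171 genes 24.8% were called, and their median absolute log2 fold change was 0.08 beside 0.04.

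**Figure D2:**
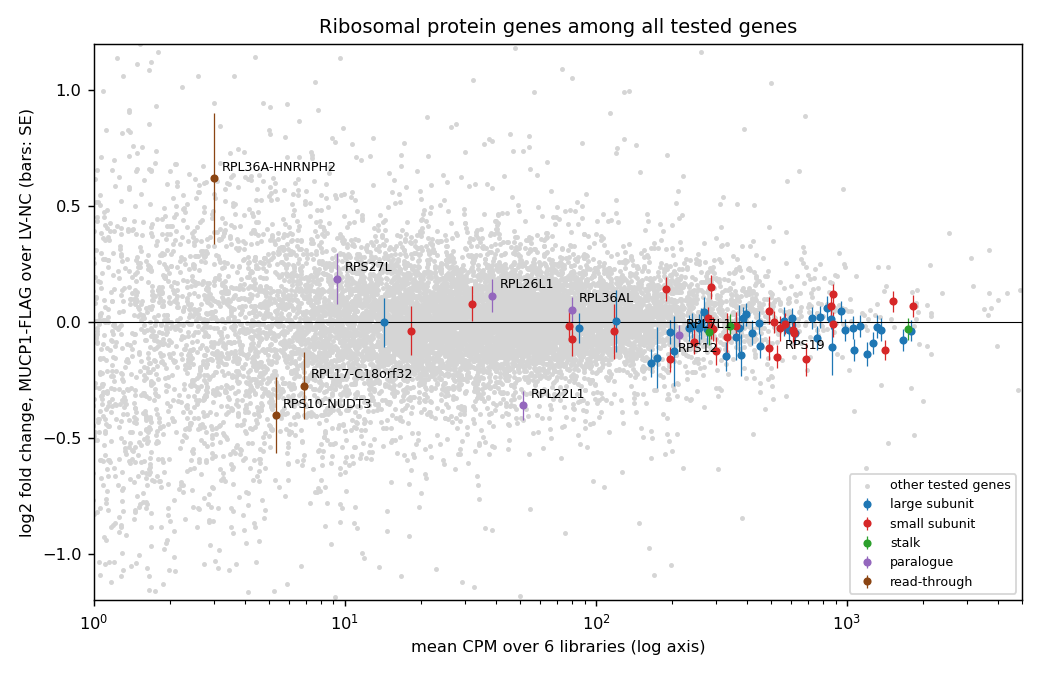
Log2 fold change of MUCP1-FLAG over LV-NC against the mean CPM (log axis) for the 84 tested members, with standard errors, over all other tested genes in grey; genes outside the axes are not drawn. The canonical members stay between −0.18 and 0.15, while RPL22L1 lies at −0.36.

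RPL22L1, the paralogue of the large-subunit protein RPL22, had the strongest call. Its level was 54.9, 56.8 and 61.7 CPM in the LV-NC libraries and 44.5, 45.6 and 44.9 CPM in the MUCP1-FLAG libraries. Every MUCP1-FLAG library lay below every LV-NC library. The mean went from 57.8 ± 3.51 to 45.0 ± 0.56 CPM (SD, n = 3 per group), a fall of 1.28-fold, with a log2 fold change of −0.36 ± 0.06 (SE) and an edgeR adjusted p of 0.000351. The gene (ENSG00000163584) lies on chromosome 3 at 170864875 to 170870483 of GRCh38, minus strand. In the authors' deposited table its adjusted p was 7.28e-05.

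RPL22, the canonical partner on chromosome 1, had 257, 284 and 300 CPM in LV-NC against 260, 305 and 260 CPM in MUCP1-FLAG. These groups overlapped, and its log2 fold change was −0.03 ± 0.07 (edgeR adjusted p 0.823). Per length, RPL22L1 stood at 41.1% of the FPKM of RPL22 in LV-NC and at 31.9% in MUCP1-FLAG. The coding sequences of the pair share 70.6% of aligned bases, with a longest identical stretch of 17 bases.

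RPS19, a small-subunit protein needed for maturation of the small-subunit rRNA, had 589, 564 and 514 CPM in LV-NC against 498, 510 and 495 CPM in MUCP1-FLAG. The lowest LV-NC library lay just above the highest MUCP1-FLAG library. The mean went from 556 ± 38.2 to 501 ± 7.91 CPM (SD, n = 3 per group), and the log2 fold change was −0.15 ± 0.05, with an adjusted p of 0.0412 from edgeR. The call held when LV-NC replicate 3 was left out and was lost when any other single library was, with adjusted p values of 0.0779 to 0.163.

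RPS12, a small-subunit protein near the beak of the subunit, had 211, 215 and 201 CPM in LV-NC against 173, 200.1 and 188 CPM in MUCP1-FLAG. The groups did not overlap, but LV-NC replicate 3 and MUCP1-FLAG replicate 2 nearly met. The log2 fold change was −0.16 ± 0.05 (edgeR adjusted p 0.0420), and the call was lost when LV-NC replicate 1, LV-NC replicate 2, MUCP1-FLAG replicate 1 or MUCP1-FLAG replicate 3 was left out, at 0.0558 to 0.213. The authors' deposited table also called 3 of the 88 members, RPL22L1, RPS19 (adjusted p 0.0415) and RPS6 (0.0487). It called 1521 of all 20289 genes, and these include genes below the filter used here.

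**Figure D3:**
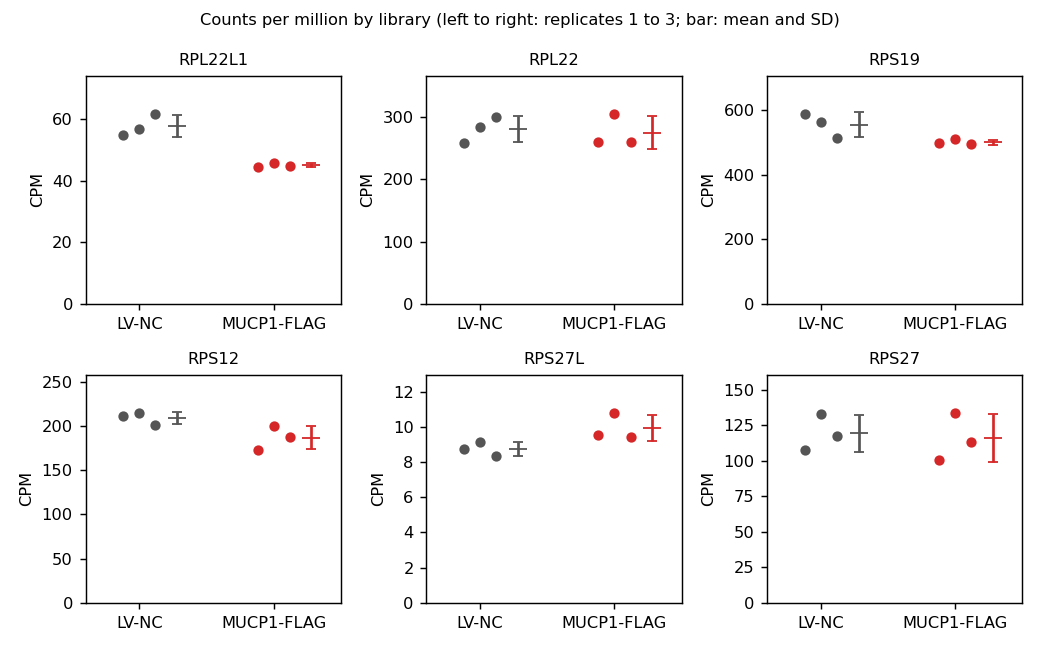
CPM in each library for the 3 called genes and for RPL22, RPS27L and RPS27, with mean and SD of 3 beside the points; every axis starts at 0. RPL22L1 is at 54.9 to 61.7 CPM in LV-NC and 44.5 to 45.6 CPM in MUCP1-FLAG, while the groups of RPL22 and RPS27 overlap.

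Of the 30 small-subunit genes 9 had a log2 fold change above 0 and 21 below, beside 6330 and 6590 of all tested genes. At an unadjusted edgeR p under 0.05 there were 3 on the higher and 5 on the lower side, RPS19 and RPS12 included. This is 26.7% of the 30, beside 29.4% of all tested genes (1902 higher and 1895 lower). RPS15, which lies near the decoding site, had 249 to 296 CPM in LV-NC and 300 to 302 CPM in MUCP1-FLAG (0.15 ± 0.05 on the log2 scale, edgeR adjusted p 0.0600). RPS26, at the mRNA exit channel, had 0.14 ± 0.05 (0.0673) and RPS7 had 0.12 ± 0.04 (0.0757). RPS6, the substrate of the S6 kinases, had 1442 to 1512 CPM in LV-NC and 1309 to 1417 CPM in MUCP1-FLAG (−0.12 ± 0.04, 0.0710). RPS18 had −0.16 ± 0.07 (0.160) and RPS16 −0.11 ± 0.05 (0.160). None of these 6 passed the test. Groups did not overlap for 10 of the 84 members, 5 in each direction, or 11.9% beside 33.1% of all tested genes (16.6% higher and 16.4% lower). In the higher direction these were RPS15, RPS26, RPS7, RPS4X and RPS27L, and in the lower direction RPL22L1, RPS19, RPS12, RPS6 and the read-through gene RPS10-NUDT3.

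Of the 43 large-subunit genes 0 were called and 0 had groups that did not overlap, beside 16.1% and 33.1% of all tested genes. In edgeR's test 4 had an unadjusted p under 0.05, or 9.30% beside 29.4% of all tested genes. All 4 were lower: RPL36 (−0.18 ± 0.06, edgeR adjusted p 0.0621), RPL26 (−0.14 ± 0.05, 0.0674), RPL12, a protein of the stalk base (−0.12 ± 0.05, 0.0821), and RPL28 (−0.15 ± 0.06, 0.125). The P stalk, which recruits the elongation factors, had log2 fold changes of −0.03 ± 0.05 for RPLP0, −0.02 ± 0.05 for RPLP1 and −0.04 ± 0.05 for RPLP2. RPLP0 alone had 1677 to 1819 CPM in LV-NC and 1647 to 1824 CPM in MUCP1-FLAG.

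The other 4 tested paralogues were not called. RPS27L had 8.76, 9.13 and 8.32 CPM in LV-NC against 9.57, 10.8 and 9.44 CPM in MUCP1-FLAG (log2 fold change 0.19 ± 0.11, edgeR adjusted p 0.275). Its groups did not overlap, while RPS27 had 108 to 133 CPM in LV-NC and 101 to 134 CPM in MUCP1-FLAG. RPL26L1 had 0.11 ± 0.07 (edgeR adjusted p 0.305), RPL36AL 0.05 ± 0.05 (0.557) and RPL7L1, a relative of RPL7 linked to early assembly of the large subunit, −0.06 ± 0.05 (0.447). RPL7L1 was the member that the deposited annotation does not place in the KEGG ribosome pathway, which holds the other 87.

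To compare each paralogue with its partner within a library, the log2 ratio of their CPM was taken in the 5 pairs with both genes tested. The ratio of RPL22L1 to RPL22 was −2.23, −2.32 and −2.28 in LV-NC against −2.55, −2.74 and −2.53 in MUCP1-FLAG. Its groups did not overlap, and the mean went from −2.28 ± 0.05 to −2.61 ± 0.12 (SD, n = 3 per group), a difference of −0.33. The two-sided exact permutation p was 0.1, which is the smallest that 3 against 3 libraries can give, and 0.25 after Benjamini-Hochberg adjustment over the 5 pairs. The differences of the other ratios were 0.26 for RPL26L1 to RPL26, 0.23 for RPS27L to RPS27, 0.12 for RPL36AL to RPL36A and −0.07 for RPL7L1 to RPL7, with exact permutation p values of 0.2, 0.2, 0.3 and 0.2. None of the 5 could pass 0.05 in this design. Per length, the tested paralogues stood below their partners, by different amounts. In LV-NC RPL26L1 had 2.25% of the FPKM of RPL26, RPS27L 2.42% of RPS27 and RPL7L1 10.6% of RPL7. RPL36AL had 15.7% of RPL36A and RPL22L1 41.1% of RPL22. RPL36AL and RPL36A share 89.9% of aligned coding bases with a stretch of 60 identical bases, so reads may be split between them. In the other tested pairs the longest identical stretch was 11 to 20 bases.

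**Figure D4:**
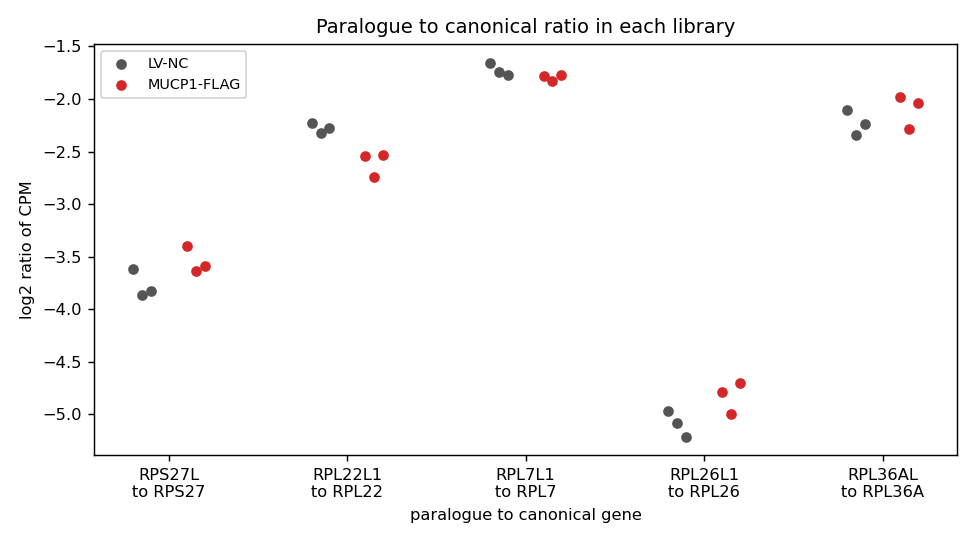
Log2 ratio of the CPM of each paralogue to that of its canonical partner, 1 point per library, for LV-NC (grey) and MUCP1-FLAG (red). The ratio of RPL22L1 to RPL22 lies at −2.32 to −2.23 in LV-NC and at −2.74 to −2.53 in MUCP1-FLAG; ratios are not scaled for length, so heights of different pairs are not comparable.

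The read-through genes were rare and share exons with a member, so their values are uncertain. RPS10-NUDT3 had 5.66 to 6.28 CPM in LV-NC and 3.40 to 5.28 CPM in MUCP1-FLAG (log2 fold change −0.40 ± 0.16, edgeR adjusted p 0.103). RPL17-C18orf32 had −0.27 ± 0.14 (0.213) and RPL36A-HNRNPH2 0.62 ± 0.28 (0.159).

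As a share of all counts the canonical members took 4.58%, 4.70% and 4.42% in LV-NC against 4.24%, 4.66% and 4.36% in MUCP1-FLAG. The groups overlapped, with means of 4.57% ± 0.14 and 4.42% ± 0.22 (SD, n = 3 per group). The difference of −0.14 percentage points had a two-sided exact permutation p of 0.4. Fewer cells of a kind and less RNA per cell cannot be told apart in such libraries.

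The libraries of a group differed in these genes as a block. Of the 76 canonical members 50 were highest in replicate 2 within both groups, beside 11.3% of all tested genes. Replicate 2 was also the deepest library of each group, with 21534908 and 23282604 counts, where the other libraries had 17333329 to 19514699. Among canonical members the pattern was larger in short mRNAs in the replicate 2 libraries and in MUCP1-FLAG replicate 1. In the 38 canonical genes with an implied length (from count, FPKM and library total) of up to 646 bases, the median deviation from the mean of the 6 libraries was 0.10 in LV-NC replicate 2, 0.11 in MUCP1-FLAG replicate 2 and −0.14 in MUCP1-FLAG replicate 1 on the log2 scale. In the 38 longer ones these values were 0.05, 0.08 and −0.06. In LV-NC replicate 3 the longer ones deviated more, at −0.05 against −0.02 in the short ones. Both sets had 0.01 in LV-NC replicate 1, and in MUCP1-FLAG replicate 3 the short had −0.05 and the longer −0.03. The 129 other genes of up to 646 bases with a mean of at least 10 CPM varied too. They had 0.02 in LV-NC replicate 2, 0.14 in MUCP1-FLAG replicate 2 and −0.05 in MUCP1-FLAG replicate 1. The median of the 9214 longer ones stayed within 0.01 of 0 in all 6 libraries. These deviations were taken after TMM scaling, which centres the bulk of the tested genes. The last median is therefore placed near 0 by the scaling and cannot show whether longer genes shifted.

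RPL39, one of the shortest ribosomal proteins, shows the pattern: it had 195, 241 and 203 CPM in LV-NC against 171, 232 and 182 CPM in MUCP1-FLAG (−0.13 ± 0.15 on the log2 scale, edgeR adjusted p 0.656). RPL41 had 979 CPM in LV-NC replicate 2 and 968 in MUCP1-FLAG replicate 2, against 724 to 890 in the other 4 libraries. The median standard error was 0.060 in the short and 0.049 in the long canonical genes, and across the 76 genes Spearman's rho of implied length and standard error was −0.61, as a description of genes that share the same libraries. The part of depth or length in these differences was not tested. The number of lower members turned on single libraries: leaving out LV-NC replicate 3 gave 12 (14.3% of the members, beside 19.5% of all genes called in that fit), as did leaving out MUCP1-FLAG replicate 2 (14.3% beside 10.7%). Leaving out LV-NC replicate 1 gave 2 lower and 3 higher members (5.95% beside 17.3%). Leaving out LV-NC replicate 2, MUCP1-FLAG replicate 1 or MUCP1-FLAG replicate 3 gave 1 lower member, which was RPL22L1 each time, where 10.4%, 11.6% and 9.70% of all genes were called. RPL22L1 remained called in all 6 of these fits, with adjusted p values of 6.69e-05 to 0.00558.

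**Figure D5:**
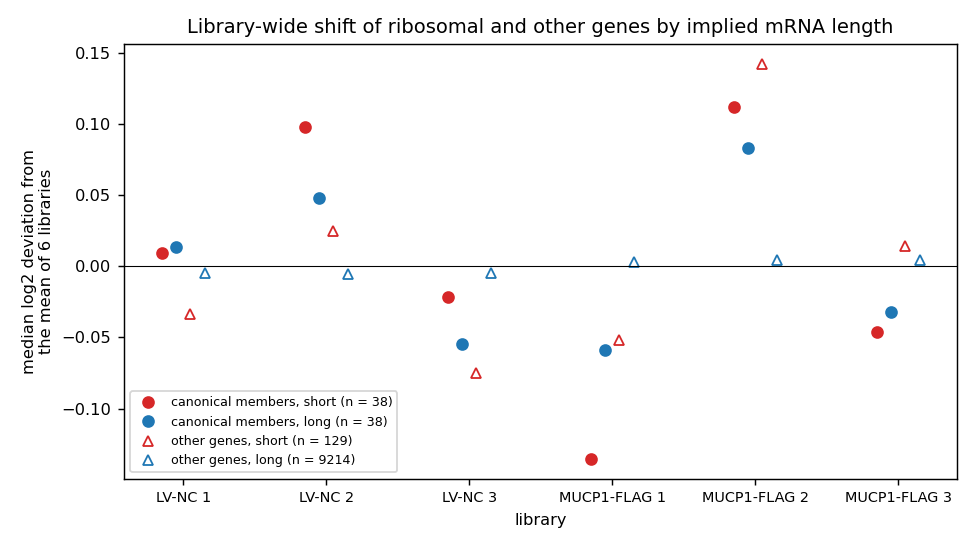
Median log2 deviation from the mean of the 6 libraries for canonical members (filled circles) and other genes with a mean of at least 10 CPM (open triangles), up to 646 bases of implied length (red) and longer (blue). Short canonical genes are at 0.10 and 0.11 in the replicate 2 libraries and at −0.14 in MUCP1-FLAG replicate 1.

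Few genes that work with the ribosomal proteins were called. Of 16 other TOP mRNAs 0 were called, and their median difference was 0.02 on the log2 scale. In edgeR's test 2 of the 16 had an unadjusted p under 0.05, as did 29.4% of all tested genes. They were the elongation factor EEF2 (−0.14 ± 0.05, edgeR adjusted p 0.0601) and TPT1 (−0.10 ± 0.04, 0.116), both lower. Of 15 genes of rRNA transcription by RNA polymerase I 1 was higher, the promoter selectivity factor subunit TAF1C (0.28 ± 0.09, edgeR adjusted p 0.0479). Of 45 genes of rRNA processing and assembly 1 was lower, NOP58, a core protein of box C/D snoRNPs (−0.14 ± 0.05, 0.0466), with a median over the 45 of 0.00. TSR1, which acts late in assembly of the small subunit, had −0.12 ± 0.04 (0.0681). These counts stand beside the 16.1% of all tested genes.

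Of 8 chaperones of ribosomal and nascent proteins BTF3, a subunit of the nascent polypeptide-associated complex, rose (0.14 ± 0.04, 0.0405), and TSR2, the chaperone of RPS26, had 0.17 ± 0.06 (0.0784). Of 15 genes of mTORC1 and TOP translation 2 rose: RHEB, the GTPase that activates mTORC1 (0.14 ± 0.04, 0.0381), and AKT1S1, an inhibitory subunit (0.19 ± 0.06, 0.0320). Of 19 tested p53 targets, listed because RPS27L is one, DDB2 rose (0.36 ± 0.08, edgeR adjusted p 0.00326) and TNFRSF10B (−0.31 ± 0.05, 0.000149) and AEN (−0.20 ± 0.05, 0.0159) fell. GDF15, a secreted protein of the TGF-beta family, had −0.21 ± 0.08 (0.0612). The calls in these lists, 1 of 8, 2 of 15 and 3 of 19, stand beside the same 16.1% of all tested genes.

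Of 8 markers of colon epithelium 7 were tested. CDH1, EPCAM and VIL1 fell and KRT19 rose, with log2 fold changes of −1.06, −0.33, −0.40 and 0.17. Their edgeR adjusted p values were 3.26e-09, 3.51e-05, 0.00731 and 0.0322. KRT18 (0.12, 0.0644), KRT8 (0.03, 0.735) and CDX2 (−0.03, 0.878) were not called, and KRT20 had 4 counts in total. The 3 lower and 1 higher calls stand beside 7.71% lower and 8.35% higher among all tested genes. Summed fibroblast markers stood at 0.69 to 1.20 CPM over the 6 libraries, with 2 of 5 at 0 counts, blood markers at 0.63 to 1.29 CPM, with 1 of 5 at 0, and endothelial markers at 2.23 to 4.15 CPM, with 2 of 3 at 0.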

How the data were processed

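RNA of 6 SW480 libraries was taken up with Trizol and went into an mRNA library kit, per the protocols in the labels. The authors deposited whole-number read counts and FPKM values per gene, their group means, a log2 fold change of those means (checked by recalculation), and p-values of a test not given in the sources used here. Per the submitters' processing notes, DESeq2, featureCounts, HISAT2 and fastp were used with GRCh38, without versions.

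Counts were tested with edgeR 4.0.16 in R 4.3.3 (quasi-likelihood F test, robust, TMM; filterByExpr, minimum count 10; Benjamini-Hochberg adjustment over all tested genes, threshold 0.05). A standard error is the log2 fold change divided by the root of its F statistic. Alternatives used DESeq2 1.42.0 and limma 3.58.1 on log2(FPKM + 1) and log2(FPKM + 0.1), other scalings and filters, a replicate block and leaving out each library in turn. Scripts were tested on simulated counts. Start windows come from RefSeq, coordinates, pseudogenes and coding sequences from GENCODE 29 (longest complete coding transcript, global alignment, Biopython 1.88).

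Named genes were the called members, every paralogue with its partner, the 3 canonical members with the highest FPKM and the members of each other list with the smallest adjusted p (up to 4); further members were named after their values were seen, to show the ends of a range. Members and lists were chosen with earlier results of these data known. The list of ribosomal proteins whose symbols fall outside the member rule is not reported here. Library totals ran from 17333329 to 23282604 counts.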

Additional observations from a re-analysis of the deposited data

How the results depend on the processing

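RPL22L1 stayed lower and called in all 15 alternatives, with log2 fold changes of −0.39 to −0.31 and adjusted p values of 1.09e-05 to 0.00558. The number of lower members, 3, was 7 with library totals alone (15.6% of all genes called), 5 without the low-count filter (14.0%), and 1 with limma on log2(FPKM + 1) and with limma on log2(FPKM + 0.1) (8.19% and 8.24%); over the left-out libraries it ran from 1 to 12, with 9.70% to 19.5% of all genes called. The number of higher members, 0, was 2 without the low-count filter and ran from 0 to 3 over the left-out libraries. All called genes, 2075, were 1058 and 1065 with limma on the 2 FPKM scales and 1263 to 2536 over the left-out libraries. The median log2 fold change of the members was −0.03, and ran over the left-out libraries from −0.08 (MUCP1-FLAG replicate 2) and −0.06 (LV-NC replicate 3) to 0.01 (LV-NC replicate 2, or else MUCP1-FLAG replicate 1). The difference in the share of counts was −0.26 to −0.05 percentage points over the left-out libraries. As a share of summed FPKM, a larger base share, the canonical members had means of 11.62% in LV-NC and 11.15% in MUCP1-FLAG. That difference was −0.46 percentage points (two-sided exact permutation p 0.3). The labels do not say whether samples with the same replicate number share more than a number. Over all tested genes their deviations from the group means correlated at 0.04, 0.05 and 0.00, and over the canonical members at 0.46, 0.67 and −0.34. Samples with different numbers had −0.05 to 0.01 over all tested genes and −0.73 to 0.50 over the canonical members. With the replicate block 9 members were lower and 1, RPS15, was higher, where 15.2% of all genes were called. The smallest difference that 3 libraries per group can resolve for these genes was not measured. In the main fit RPS19 at −0.15 on the log2 scale was called, while RPS15 at 0.15 and RPS18 at −0.16 were not. Differences of this size or smaller may therefore go unseen. The cause of the shifts between fits was not tested.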
